A study of Macaca mulatta with 24 samples.

Results

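Endometrium of conception cycles was set against endometrium of non-mated cycles at day 4 after ovulation in the rhesus monkey (Macaca mulatta). The comparison takes 8 of the 24 Agilent 1-colour arrays of the study, 4 labelled conception day 4 and 4 labelled non-mated day 4. The conception arrays hold endometrial total RNA of mated cycles with proven conception, and the non-mated arrays hold that of normo-ovulatory cycles without mating in proven fertile females. The labels name no drug, transgene or genotype for either cycle type. The other 16 arrays, at days 2 and 6 in both cycle types, entered the fit for its estimate of the spread. The day was taken from the source name, because the 4 non-mated arrays carry day 2 in their titles but day 4 in every other label. The source names of the conception arrays count the day from fertilization and their descriptions from ovulation, and ovulation is used here. The labels do not say whether a group's 4 arrays stand for 4 animals, so a p here measures no more than the spread among the arrays, part or all of which may be technical.

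The endometrium is the lining of the uterus. After ovulation progesterone turns its glands from growth to secretion, and it becomes receptive to a blastocyst within a short window of the luteal phase. Receptivity is known to go with secretory products of the glands such as PAEP and SPP1, with cytokines such as LIF, with changes in the stroma that lead to decidualization, and with resident macrophages and uterine natural killer cells. The comparison addresses what the lining looks like in a conception cycle before the embryo attaches.

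The 4 conception arrays had 51.8% to 58.4% of non-control spots well above background. The non-mated arrays had 35.6% on replicate 1, 18.4% on replicate 2, 67.0% on replicate 3 and 67.8% on replicate 4. Replicates 1 and 2 lay below the limit of 50%, and without them only 2 of 4 non-mated arrays remain for day 4. Levels throughout are log2 of the processed signal minus the 75th percentile of the array, so that 0 is the 75th percentile. The lowest level an array can hold, its floor, was -6.32 to -5.63 on the conception arrays and -3.68, -1.73, -7.84 and -7.96 on non-mated replicates 1 to 4. At its floor lay 14.4% of features on non-mated replicate 1 and 39.8% on replicate 2, against at most 2.26% on any other day 4 array. Non-mated replicate 2 correlated with the other 7 arrays at r from 0.433 to 0.618 over 12194 features, while the 4 conception arrays correlated with each other at 0.886 to 0.956 and with non-mated replicates 3 and 4 at 0.887 to 0.946. These correlations run across features, which are not independent replicates.

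**Figure D1:**
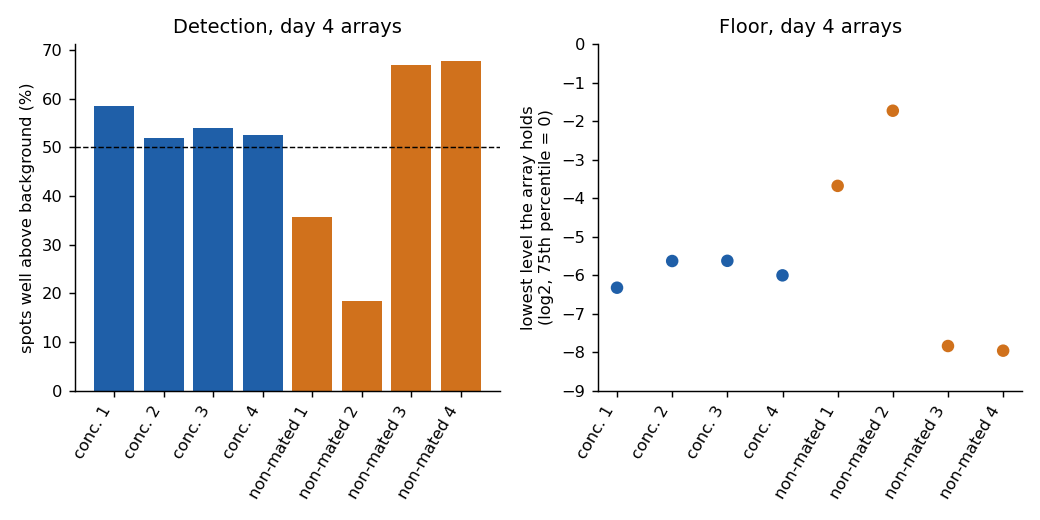
Left, share of non-control spots well above background (%) on each day 4 array (bars), with the limit of 50% as a dashed line; right, lowest level each array can hold (log2, 75th percentile = 0; points). Non-mated replicates 1 and 2 have the lowest shares, 35.6% and 18.4%, and the highest floors, -3.68 and -1.73.

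Markers of endometrial stroma and epithelium, which other tissues share, were present on all 8 arrays. On the conception arrays the 10 stromal fibroblast markers tested had mean levels of 2.01 to 2.27 and on the non-mated arrays of 1.47 to 2.88. The 7 epithelial markers tested lay at 0.16 to 1.79 on conception arrays and 0.76 to 1.63 on non-mated arrays. Markers of other cells were also present, among them 9 smooth muscle markers with means of 0.23 to 1.28 on conception arrays and 0.16 to 1.63 on non-mated arrays. Of 14 sperm and seminal gland genes listed, which would mark residue of mating, 7 had a named probe and 1 of these passed the filter on dim probes. It was ODF1, a gene of the sperm tail, which lay highest on weak non-mated replicate 2, at 4.18, and at -2.76 to -0.62 on the conception arrays. On strong non-mated replicates 3 and 4 it lay at -2.21 and -2.33, within the conception range. Its difference was -1.29 with all arrays and 0.90 without the weak ones. Of 12 trophoblast and embryo genes 8 had a named probe and 2 passed. In such bulk tissue fewer cells of a type and less RNA per cell cannot be told apart.

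No gene differed between the cycle types at day 4 once p-values were adjusted over all 12194 features (limma, Benjamini-Hochberg, threshold 0.05). The smallest adjusted p was 0.272 with 4 arrays against 4, and 0.292 with 4 against 2 after the weak arrays were left out. At an unadjusted p under 0.05 there were 743 features, 389 higher and 354 lower in conception cycles, where chance gives about 610. Without the weak arrays there were 666, 361 higher and 305 lower. The lists shared 211 features, which is 28.4% of the first and 31.7% of the second, and all 211 had the same sign. Over all features 60.7% kept their sign. Of the 743 features 52.4% were higher in conception cycles, and this share was 83.9% after quantile normalization, 86.8% after centring on probes above background on all arrays, 69.5% with a common floor and 23.1% in a fit of the 8 arrays alone. Quantile normalization moved the median of all features from 0.02 to 0.41 and centring to 0.55, so list medians under them are given relative to it. The values below are therefore given as levels and differences, and none of them is a change that passed the test. The count below 0.05 depended on single arrays. It was 311 without non-mated replicate 2, 1698 without replicate 3, 1333 without replicate 4 and 483 without conception replicate 4, and without non-mated replicate 3 TESC alone passed (adjusted p = 0.0399).

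Groups whose arrays do not overlap give a second description. With 4 against 4 arrays, 137 features (1.12% of those tested) were higher on every conception array than on any non-mated array and 158 (1.3%) were lower. With 4 against 2 arrays these counts were 879 (7.21%) and 829 (6.8%).

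Among genes with higher levels in conception cycles, the 15 with the smallest p included a stress and growth arrest gene, antioxidant enzymes and transporters. Their median log2 difference was 1.33, and 1.04 without the weak arrays, against 0.02 and 0.01 over all features. All 15 remained higher without the weak arrays and all 15 differences became smaller. The groups did not overlap for 11 of 15 with 4 against 4 arrays and for 12 of 15 with 4 against 2, but the genes were chosen on this contrast and these counts describe the choice.

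TESC, which encodes the calcium-binding protein tescalcin, had levels of 1.02, 0.99, 1.12 and -0.04 on conception replicates 1 to 4 and of -2.22, -1.73, -0.12 and -2.06 on non-mated replicates 1 to 4. Every conception array lay above every non-mated array, but conception replicate 4 and non-mated replicate 3 lay only 0.08 apart. The value of -1.73 is the floor of non-mated replicate 2. The difference of 2.30 ± 0.47 (SE) was 1.86 ± 0.55 without the weak arrays (limma adjusted p = 0.862). The probe lies at chr11:117983766-117983825 on rheMac2.

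GADD45A, a gene induced by stress and DNA damage that restrains cell division, had levels of 0.70, 1.95, 1.68 and -0.69 on the conception arrays and of -2.97, -1.73, -1.03 and -1.22 on the non-mated arrays. The groups did not overlap, and conception replicate 4 was again the lowest of its group. Its difference was 2.65 ± 0.55 with all arrays and 2.03 ± 0.62 without the weak ones (probe at chr1:70474801-70474860). The related GADD45G lay at 2.08, 3.39, 4.21 and 4.42 against 3.24, -0.47, 1.00 and 2.03. Its groups overlapped through non-mated replicate 1, and its difference was 2.08 ± 0.76, or 2.01 without the weak arrays. The list of GADD45 and p53 target genes was higher for 14 of 20 members, with a median of 0.32. Without the weak arrays 9 of 20 were higher and 11 lower, with a median of -0.18. With all arrays its members ranged from -1.96 to 2.65.

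GPX3, the extracellular glutathione peroxidase, which is a known secretory phase gene, was well above background on all 8 arrays. Its levels were 1.40, 2.37, 2.93 and 0.97 in conception cycles and -0.90, 0.49, 0.56 and -0.81 in non-mated cycles, with no overlap. The difference was 2.09 ± 0.62 and barely moved without the weak arrays, at 2.05 ± 0.77 (probe at chr6:147442290-147442349). MGST1, a membrane-bound glutathione transferase, lay at 1.35, 3.64, 3.28 and 2.38 against 0.72, -1.01, 1.52 and 1.73. Its groups overlapped, and its difference of 1.92 ± 0.59 was 1.04 ± 0.51 without the weak arrays. A further MGST1 probe lay at 1.85.

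SLC22A5, the carnitine transporter gene, was also well above background on all 8 arrays, at 2.18, 2.43, 1.94 and 1.79 against 0.13, 1.07, 1.64 and 0.24. These groups did not overlap, with a difference of 1.31 ± 0.40 and of 1.14 ± 0.38 without the weak arrays. LDB2, a cofactor of LIM domain transcription factors, lay from -0.72 to -0.18 in conception cycles and from -2.28 to -1.55 in non-mated cycles, with no overlap. Its difference was 1.42 ± 0.43, and 1.22 ± 0.51 without the weak arrays. IFI30, a lysosomal thiol reductase of antigen processing, lay at 2.07, 1.61, 2.47 and 0.86 against -0.45, -1.0, 0.87 and -0.04. Conception replicate 4 and non-mated replicate 3 overlapped by 0.015, and the difference without the weak arrays was 1.33 ± 0.50 in place of 1.90.

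The remaining 8 of the 15 had differences of 1.10 to 1.56 with all arrays and 0.43 to 1.07 without the weak ones. They were ARID5B, a chromatin-associated DNA-binding protein gene, the mitochondrial reductase gene MTARC2, the tumour necrosis factor receptor gene TNFRSF1B, the ubiquitin ligase gene RNF41, the SUMO protease gene SENP2, the splicing factor gene SNRPB2, the nucleotide sugar transporter gene SLC35D2 and TTC14. RNF41, SENP2 and TTC14 lay at the low end without the weak arrays, at 0.53, 0.50 and 0.43. On non-mated replicate 2 RNF41, SENP2, MTARC2, ARID5B and SLC35D2 were at the floor of -1.73. With all arrays further probes of MTARC2 lay at 0.68 and 0.74, against 1.22 for the probe used. A further ARID5B probe lay at 1.08, against 1.56.

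**Figure D2:**
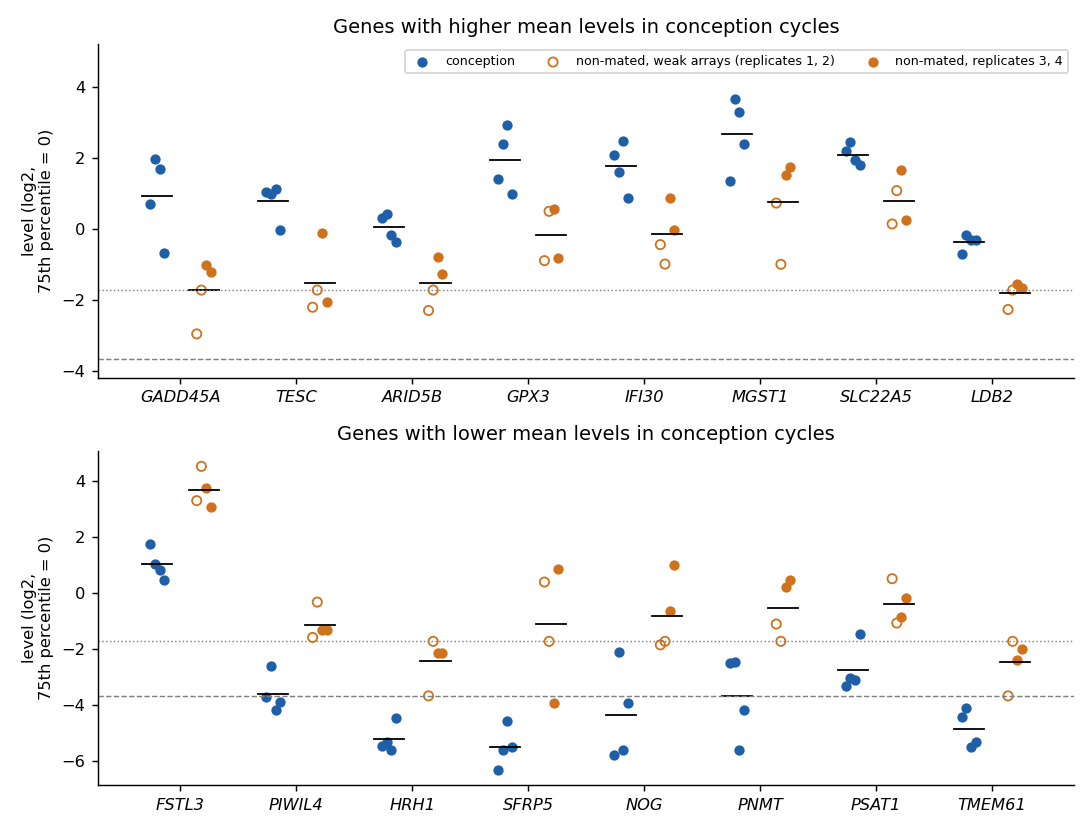
Level on each day 4 array (log2, 75th percentile = 0) of 8 genes with higher and 8 with lower mean levels in conception cycles; points are arrays, open circles the weak non-mated replicates 1 and 2, and black lines group means of 4 arrays. The dashed and dotted lines mark the floors of non-mated replicates 1 (-3.68) and 2 (-1.73); FSTL3 lies above both floors on all 8 arrays, while HRH1 and TMEM61 sit at them on the weak arrays.

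Among genes with lower levels in conception cycles, secreted antagonists of growth factor pathways stood among the 15 with the smallest p. FSTL3 binds activin, NOG (noggin) binds bone morphogenetic proteins and SFRP5 binds Wnt ligands. The median difference of the 15 was -2.57, and -2.40 without the weak arrays. All 15 were lower in both fits, 11 with a smaller difference without the weak arrays, and the groups did not overlap for any of the 15 in either fit, which again describes genes chosen on this contrast. FSTL3, DOC2A and WWP2 were well above background on all 8 arrays.

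FSTL3 had levels of 1.74, 1.05, 0.81 and 0.47 in conception cycles and of 3.30, 4.53, 3.76 and 3.07 in non-mated cycles. The lowest non-mated array lay 1.33 above the highest conception array, and the weak replicates at 3.30 and 4.53 lay around the strong replicate at 3.76. The difference was -2.65 ± 0.55, -2.40 ± 0.64 without the weak arrays, and from -2.89 to -2.11 over all 23 alternatives (probe at chr19:430119-430178). Raising all arrays to one common floor left it at -2.65. Its slide 2 and slide 3 differences were -1.56 and -3.48. On all 8 arrays it lay well above the floor.

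PIWIL4, an Argonaute gene of the piRNA pathway, had levels of -3.72, -2.62, -4.18 and -3.90 against -1.59, -0.33, -1.34 and -1.31. The groups did not overlap, yet every conception level lay below -1.73, the floor of non-mated replicate 2, so that this array could not have shown a level as low. With one common floor for all 8 arrays the difference went from -2.46 to -0.59, and without the weak arrays it was -2.28 ± 0.53. The 4 conception levels lay below that floor for 10 of the 15 genes, namely PIWIL4, HRH1, MCF2, TMEM61, RPA4, PNMT, SFRP5, RIPOR2, PDE8B and NOG.

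HRH1, the histamine H1 receptor gene, was not well above background on any conception array, with levels of -5.47, -5.32, -5.63 and -4.47. On non-mated replicates 1 and 2 it stood at their floors of -3.68 and -1.73, and on replicates 3 and 4 it was measured at -2.14 and -2.15. With 4 against 2 arrays the non-mated level was at least 4.42-fold higher, where the conception arrays are set to the lowest signal well above background (limma adjusted p = 0.292). With 4 against 4 arrays no bound is given, because the non-mated mean then holds floor values. The difference with a common floor was 0.00, because both groups then sit at the floor.

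SFRP5, a secreted Wnt antagonist, was likewise not well above background on any conception array, at -6.32, -5.63, -4.59 and -5.52. Its non-mated levels of 0.39, -1.73, -3.92 and 0.87 spread over 4.79 on the log2 scale, and the strong replicates 3 and 4 were its lowest and highest. The mean non-mated level without the weak arrays was at least 6.80-fold higher (limma adjusted p = 0.862). This bound is on the mean of replicates 3 and 4 and does not hold for replicate 3 alone. At -3.92, replicate 3 lay near the lowest signals well above background of the conception arrays, -4.72 to -4.04. NOG lay at -5.81, -2.12, -5.63 and -3.95 against -1.86, -1.73, -0.66 and 1.01. Conception replicate 2 came within 0.26 of the lowest non-mated array, and the difference of -3.57 ± 1.09 was -4.55 ± 1.39 without the weak arrays.

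PNMT, the enzyme that makes adrenaline, lay at -2.49, -2.46, -5.63 and -4.19 against -1.11, -1.73, 0.21 and 0.48. Its difference was larger without the weak arrays, at -4.03 ± 0.99 in place of -3.15 ± 0.81. The 2 conception arrays of scan day 1 were the lowest and the 2 non-mated arrays of that day the highest, so the difference was -5.25 on scan day 1 and -1.05 on scan day 2. PSAT1, an enzyme of serine synthesis, lay at -3.34, -3.03, -3.11 and -1.47 against 0.51, -1.08, -0.86 and -0.18. These groups lay 0.40 apart, and the difference was -2.34 ± 0.72, -2.22 ± 0.87 without the weak arrays and -1.26 with a common floor.

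Of the other genes, TMEM61, the exchange factor gene MCF2 and RIPOR2 were not well above background on any conception array. In the fit without the weak arrays TMEM61 was at least 4.06-fold, MCF2 at least 2.52-fold and RIPOR2 at least 1.80-fold higher in non-mated cycles, while on weak replicate 2 all 3 stood at its floor. The phosphodiesterase gene PDE8B and RPA4 lay at -2.70 and -2.44, and at -2.43 and -2.24 without the weak arrays. Some genes of this side drew their difference mostly from the weak arrays. The ubiquitin ligase gene WWP2 lay at 0.70, 0.69, 0.49 and -0.04 against 2.83, 3.51, 0.98 and 0.77, so that both weak arrays stood far above both strong ones, and its difference went from -1.56 to -0.41 without them. DOC2A, a calcium sensor of vesicle release, went from -1.98 to -0.99, with 3.78 on non-mated replicate 2.

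**Figure D3:**
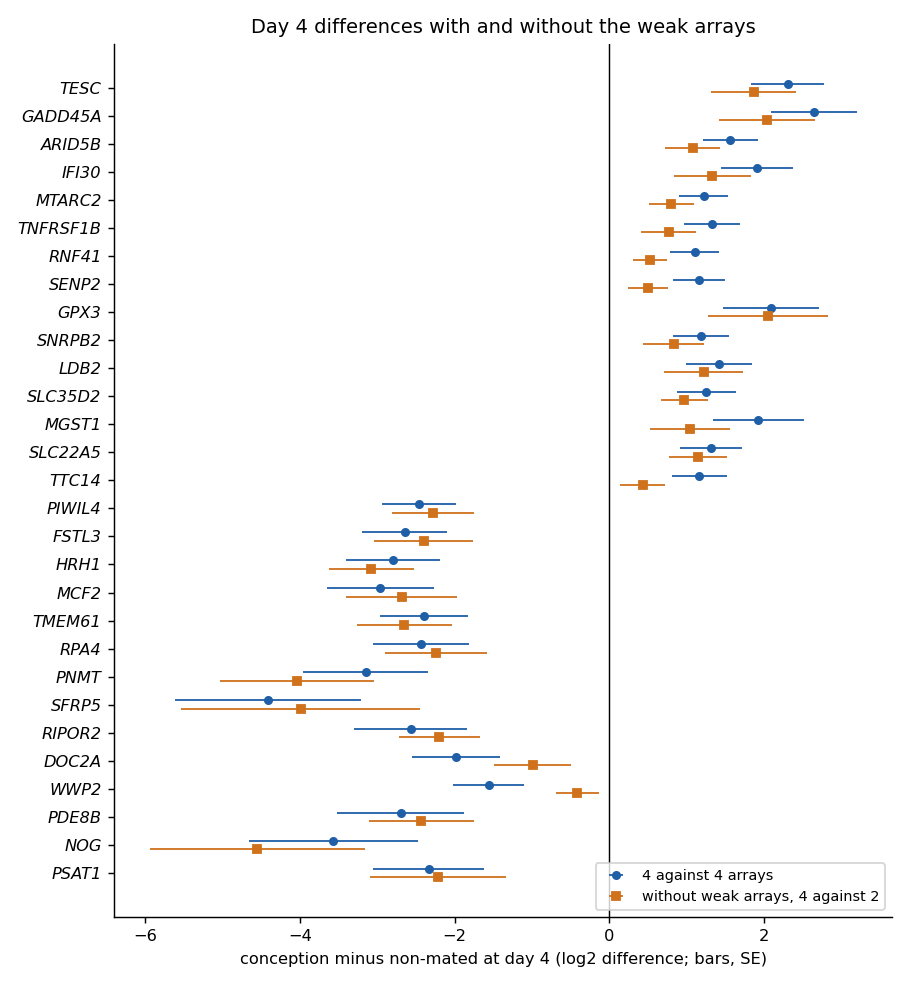
Log2 difference between conception and non-mated endometrium at day 4 (points; bars, SE from limma) for the 15 genes higher and 14 of the 15 lower with the smallest p, with 4 against 4 arrays (blue) and with 4 against 2 after the weak arrays were left out (orange). All 29 keep their side of 0; WWP2 goes from -1.56 to -0.41 and TTC14 from 1.16 to 0.43, while GPX3 and FSTL3 stay at 2.05 and -2.40.

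Leaving out the weak arrays brought other genes forward, several of them immune genes. PSMB8, a subunit of the immunoproteasome that cuts antigens, lay at 1.40, 1.11, 1.17 and 1.64 in conception cycles and at -0.35 and -0.25 on non-mated replicates 3 and 4. Weak replicate 1, at 1.57, lay among the conception arrays, and replicate 2 lay at -1.12. Its difference was 1.36 ± 0.46 with all arrays and 1.63 ± 0.42 without the weak ones (limma adjusted p = 0.862). PYCARD, the adaptor of the inflammasome, lay at -1.81, -1.49, -0.80 and -1.91 against -3.19 and -2.95 on the strong arrays. Its difference went from 1.12 to 1.57, with weak replicates 1 and 2 at -2.80 and -1.55.

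CD48, a surface protein of white blood cells, and MRC1, the macrophage mannose receptor gene, went the same way, from 0.95 to 1.55 and from 0.68 to 1.39. MRC1 had 4 conception levels within -2.33 to -2.03 and strong non-mated levels of -3.43 and -3.66. Replicate 2 stood at its floor of -1.73 for both genes, above every conception level of MRC1. On the lower side TRIM44 lay at -2.40 to -1.71 in conception cycles and at 0.06 and 0.68 on the strong arrays, with a difference of -2.41 ± 0.50 (limma adjusted p = 0.842). The nucleoside transporter gene SLC28A2 lay at -3.03 and the lipid transporter gene ABCA3 at -1.79, in place of -2.15 and -0.48 with all arrays. ABCA3 stood at the floor of non-mated replicate 2 and at 1.56 to 2.65 on the other non-mated arrays.

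Gene lists place these genes among their pathways. Lysosomal and antigen presentation genes were higher in conception cycles for 13 of 16 tested members of 23 listed. Their median difference was 0.82, against 0.02 over all features with 50.9% of them higher. No member passed the test, and 4 of 16 did not overlap between groups as higher, where 1.12% of all features did so. The mean of the list was 1.27, 1.36, 1.14 and 1.25 on the conception arrays and 0.88, 0.16, 0.89 and 0.60 on the non-mated arrays. All 4 conception arrays lay above all 4 non-mated arrays, and weak replicate 2 was the lowest. Without the weak arrays 12 of 16 members were higher, the median was 0.47, and 7 of 16 did not overlap as higher, against 7.21% of all features.

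Members of the lysosomal list beside IFI30 and PSMB8 included PSAP, the precursor of the saposins that help degrade lipids. It lay at 3.40, 3.47, 3.67 and 3.79 against 2.40, 2.20, 3.28 and 3.04, without overlap. Its difference of 0.85 ± 0.30 was 0.42 ± 0.25 without the weak arrays. CTSD, the lysosomal protease cathepsin D, lay at 2.15, 1.54, 1.55 and 1.50 against 1.19, -0.31, 0.90 and 0.37, also without overlap. Its difference was 1.15 ± 0.48 with and 1.05 ± 0.52 without the weak arrays. PSMB9, a further immunoproteasome subunit, lay at 0.80 and 0.97.

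Macrophage markers were higher for 6 of 9 with all arrays, with a median of 0.68, and for 9 of 9 without the weak arrays, with a median of 1.13. The mean of the list was -1.67, -1.47, -1.90 and -1.62 on the conception arrays, -2.80 and -2.77 on the strong non-mated arrays, and -1.97 and -1.11 on the weak ones. Weak replicate 2, where CD68, CD14 and MRC1 sit at the floor, was thus the highest of all 8. Without the weak arrays 7 of 9 members did not overlap as higher, against 7.21% of all features, and 0 passed the test. With a common floor for all 8 arrays 4 of 9 were higher and the median was -0.01 relative to all features.

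CD68, a lysosomal protein gene of macrophages, lay at -0.85, -0.20, -0.95 and -0.32 against -1.72, -1.73, -2.09 and -1.32, without overlap, with a difference of 1.14 ± 0.37 and of 1.13 ± 0.40 without the weak arrays. CD14, a receptor for bacterial lipopolysaccharide, did not overlap either, at 0.98 and 0.85. The complement gene C1QC lay at -1.11, -1.64, -1.83 and -1.58 against -3.51 and -3.44 on the strong arrays, a difference of 1.94 ± 0.72 (limma adjusted p = 0.862). C1QA, which forms a complex with it, differed by 1.13 with all arrays and by 0.41 without the weak ones.

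Of 6 T and B cell markers 4 were higher, and their median was 0.14, which was -0.03 with normexp background correction relative to all features, while without the weak arrays 6 of 6 were higher and the median was 0.66. CD2 lay at -1.43, -2.66, -1.88 and -2.02 against -3.42 and -3.42 on the strong arrays, and CD8A differed by 1.65 in that fit. Of 8 natural killer cell markers 4 were higher, and their median was -0.02, which was 0.15 under that correction, while 7 of 8 were higher without the weak arrays and the median was 0.74. NCAM1 (CD56), their classical marker, lay at 1.11 on weak replicate 2 and at -3.17 or below on the other 7 arrays. Its difference was -1.54 with and -0.16 without the weak arrays.

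The strong non-mated arrays and 2 of the conception arrays were read on scan day 1, but on different slides. That day's conception arrays were on slides 7 and 8, its non-mated arrays on slides 5 and 6, so slide and cycle type cannot be told apart there. On scan day 1 the mean difference was 1.02 for macrophage markers, 0.68 for T and B cell markers and 0.45 for the lysosomal list. On scan day 2, where slides 2 and 3 held 1 array of each cycle type and the non-mated arrays were the weak ones, these means were -0.04, -0.46 and 0.79. The 2 slides of scan day 2 differed. On slide 2, with weak replicate 1, the means were 0.29 for macrophage markers, 0.16 for T and B cell markers and 0.39 for the lysosomal list. On slide 3, with weak replicate 2, they were -0.36, -1.09 and 1.20, and 6 of 9 macrophage markers and 3 of 6 T and B cell markers stood at the floor of that replicate.

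**Figure D4:**
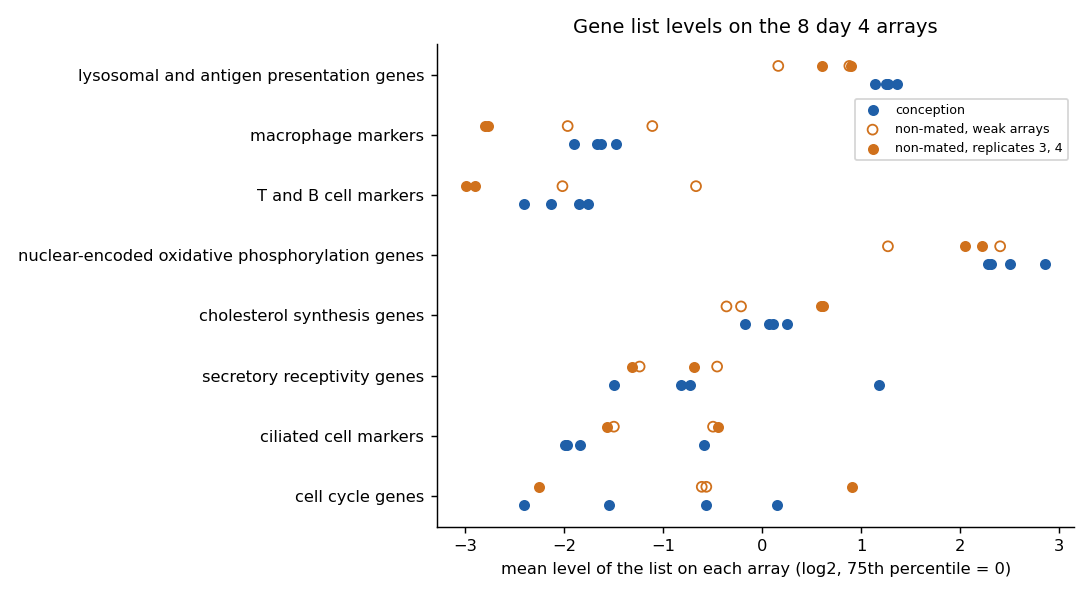
Mean level of the tested members of 8 gene lists (log2, 75th percentile = 0) on each day 4 array; blue points are conception arrays, orange points non-mated replicates 3 and 4, and open circles the weak non-mated replicates 1 and 2. The lysosomal list has no overlap between cycle types, macrophage markers are at -2.80 and -2.77 on the strong non-mated arrays, and the cell cycle list spreads from -2.26 to 0.90 within the strong pair.

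Single markers of other cells were high on the weak arrays, and the mean of the smooth muscle list lay above all conception arrays there. DES, the muscle intermediate filament gene desmin, lay at 4.47 and 4.83 on non-mated replicates 1 and 2, at 0.11 and 2.15 on replicates 3 and 4, and at 0.39 to 1.73 on the conception arrays. Its difference was -1.72 with all arrays and 0.043 without the weak ones. Of the 9 smooth muscle markers 5 were higher in conception cycles, with a median of 0.33, and 4 without the weak arrays, with a median of -0.24. Strong replicate 4, at a list mean of 1.55, lay between weak replicates 1 and 2 at 1.63 and 1.33. The conception arrays lay lower, at 0.23 to 1.28, and strong replicate 3 lay at 0.16. TAGLN (transgelin), an actin-binding protein gene of smooth muscle, lay at 2.25 and 3.12 on the weak arrays, within the conception range of 1.53 to 4.59. The mast cell tryptase gene TPSB2 lay at -1.26 and 2.33 on the weak arrays and at -4.75 to -3.10 on the other 6. Its difference of -2.33 was -0.34 without them. The mean of the 6 mast cell markers was -0.36 and 1.17 on the weak arrays and -1.29 to -0.76 on the other 6, and 4 of the 6 markers were lower in each fit. The part of muscle or mast cells in other differences was not tested. HBB, the haemoglobin gene of red blood cells, lay at 2.45, 3.90, 2.17 and 3.18 against 2.27, 1.88, 1.02 and 0.83. The groups overlapped, with a difference of 1.42 ± 0.86. They did not overlap without the weak arrays, as held for 7.21% of all features on the higher side, and the difference was 2.00 ± 1.10. The other red blood cell marker tested, the haemoglobin chaperone gene AHSP, lay at 2.08 on weak replicate 2 and at or below -1.54 on the other 7 arrays. Its difference was -1.43 with all arrays and 0.40 without the weak ones.

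The receptivity genes SPP1, PAEP and LIF ranged more widely within conception cycles than the means of the cycle types differed. The list of secretory receptivity genes was higher for 13 of 16 with a median of 0.42, and for 10 of 16 without the weak arrays with a median of 0.53. Without conception replicate 2 the medians turned to -0.12, with 7 of 16 higher, and to -0.10 in the fit without the weak arrays, with 8 of 16 higher. Its mean was 1.18 on conception replicate 2 and -0.82, -0.73 and -1.50 on the other conception arrays, while the non-mated arrays lay between -1.31 and -0.46. SPP1, which encodes osteopontin, lay at -5.15, 2.51, 0.93 and -2.45 in conception cycles and at -3.50 to -1.73 in non-mated cycles. PAEP, which encodes glycodelin, lay at -2.61, 1.35, -1.01 and -3.03 against -3.31 to -1.73.

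LIF was at -5.65, -0.22, -1.96 and -4.37 against -3.68, -1.73, -5.15 and -4.50. In all 3 genes conception replicates 2 and 3 were the high ones and replicates 1 and 4 lay within or below the non-mated range. The top of that range, -1.73, is the floor of non-mated replicate 2, and -3.68 for LIF is the floor of replicate 1. On the strong non-mated arrays LIF lay at -5.15 and -4.50, both below conception replicate 4. The LIF difference of 0.71 ± 0.94 turned to -0.23 without conception replicate 2. LIFR, its receptor gene, was not well above background on any conception array, and without the weak arrays it was at least 1.59-fold higher in non-mated cycles. HOXA10, a homeobox gene required for implantation in mice, overlapped between groups, with a difference of 0.45 ± 0.50. PGR, ESR1 and IGFBP1 had no tested probe.

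Of 17 genes of the progesterone receptor pathway 10 were higher, with a median of 0.13. Without the weak arrays 8 of 17 were higher, with a median of -0.00. After quantile normalization with all arrays 13 of 17 were higher, and the median lay at -0.13 relative to all features. HSD17B2, which inactivates oestradiol, lay at -5.36, -3.07, -5.63 and -0.31 against 1.37, -1.64, -2.37 and 0.57. Its groups overlapped, with a difference of -3.07 ± 1.36. SGK1, a kinase gene, lay at 2.46, 2.34, 0.72 and 1.47 against 0.49 and -0.25 on the strong arrays, and its difference went from 0.92 to 1.63.

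Growth factor pathways split by member. The insulin-like growth factor axis was higher for 9 of 9 members in both fits, with medians of 0.53 and 0.44, and no member passed the test. IGF2R, the receptor that clears IGF2, lay at 0.46, 0.58, 0.06 and -0.82 against -1.63, -1.72, -0.10 and -0.86, and its difference of 1.15 ± 0.42 was 0.55 without the weak arrays. IGFBP3 and IGFBP4, which bind the growth factors outside cells, differed by 0.82 and 0.93, and by 1.21 and 1.09 without the weak arrays. Leaving out single arrays gave 7 to 9 members higher.

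Wnt ligands, receptors and antagonists were higher for 10 of 23 and lower for 13, with a median of -0.52, and of -0.27 without the weak arrays. The antagonist gene FRZB lay opposite to SFRP5, at -0.40, 0.36, -0.33 and 1.21 against -1.72, -1.73, -0.41 and -1.29. These groups did not overlap, with a difference of 1.50 ± 0.49 that was 1.06 ± 0.56 without the weak arrays. WNT7A, a ligand of the uterine epithelium, lay at -3.19, -2.47, -3.52 and -4.14 against -1.64, -1.73, -2.32 and -1.38, and its difference of -1.56 was -0.11 with a common floor. DKK1, a further antagonist, overlapped between groups, with a difference of -2.01 ± 0.91. Activin, BMP and TGF-beta family genes had a median of 0.09 over 30 members with 16 higher, and FSTL3 and NOG were the 2 members that did not overlap as lower, where 1.3% of all features did so.

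Among metabolic lists oxidative phosphorylation lay to one side in both fits. All 24 tested genes of oxidative phosphorylation encoded in the nucleus were higher, against 50.9% of all features, by a median of 0.40, with means of 2.31, 2.50, 2.28 and 2.86 on conception arrays and of 2.40, 1.27, 2.05 and 2.22 on non-mated arrays. Weak replicate 2 stood lowest and weak replicate 1 within the conception range. Without them 21 of 24 were higher by a median of 0.32, and 8 of 24 did not overlap as higher, against 7.21% of all features. With all arrays 1 of 24 did not overlap as higher, against 1.12%. The mean difference was -0.09 on slide 2 and 1.23 on slide 3. SDHC, a subunit of succinate dehydrogenase, went from 1.76 to 0.75, and ATP5PO, a subunit of ATP synthase, from 0.92 to 0.75. After quantile normalization the median of the list lay at -0.01 relative to the median of all features, and at 0.26 without the weak arrays. With normexp background correction these values were 0.51 and 0.06.

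Cholesterol synthesis genes were higher for 9 of 17 with all arrays and for 2 of 17 without the weak ones, with medians of 0.02 and -0.48. After quantile normalization with all arrays 11 of 17 were higher, at a median of -0.18 relative to all features. The mean of the list lay at -0.17 to 0.25 in conception cycles and at 0.59 and 0.61 on the strong non-mated arrays, and at -0.21 and -0.36 on the weak ones. Without the weak arrays 5 of 17 members did not overlap as lower, against 6.8% of all features. The mean difference was -0.65 on scan day 1 and 0.47 on scan day 2.

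Cell cycle genes could not be placed. They were lower for 16 of 21 with all arrays and for 20 of 21 without the weak ones, with medians of -0.51 and -0.48. The mean of the list lay at -2.41, -1.55, -0.57 and 0.15 in conception cycles and at -2.26 and 0.90 on the strong non-mated arrays. Each cycle type thus held an array with high and one with low proliferation genes. Leaving out single arrays of the 6 gave from 0 to 21 members higher, with medians from -2.10 to 1.09.

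Epithelial markers lay at a median of 0.23 with all arrays and of -0.32 without the weak ones, each of which crossed 0 when a single array was left out (-0.055 and 0.011), and stromal markers at 0.19 and 0.64. After quantile normalization with all arrays these medians lay at -0.17 and -0.19 relative to all features. Of the members 5 of 7 epithelial and 8 of 10 stromal ones were higher under it. Ciliated cell markers were lower for 8 of 10 in both fits, with medians of -0.46 and -0.58. Without non-mated replicate 4 the medians were -0.01, with 5 of 10 higher, and 0.30 in the fit without the weak arrays, with 6 of 10 higher. After quantile normalization 6 of 10 were higher with all arrays, at a median of -0.36 relative to all features. Conception replicates 1, 2 and 4 lay at -1.84, -1.97 and -1.99 on the ciliated list, and replicate 3 at -0.59 within the non-mated range of -1.57 to -0.45. CFAP100, a protein gene of motile cilia, lay at -3.39, -3.54, -1.26 and -4.28 against -0.98, -1.73, -1.72 and -0.95, and its groups overlapped through that same array. DNAI2, a dynein gene of cilia, lay at -3.08 to -2.67 in conception cycles and at -1.62 and -2.02 on the strong arrays.

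The neighbouring days put the day 4 values in order. For the 15 genes higher at day 4 the median difference without the weak arrays was 0.16 at day 2, 1.04 at day 4 and 0.03 at day 6. For the 15 lower genes it was 0.02 at day 2, -2.40 at day 4 and -1.11 at day 6. At day 6, where no array was weak, 12 of the 15 lower genes were lower again, against 49.99% of all features, and 9 of the 15 higher genes were higher. Slides 7 and 8 held only conception arrays of day 6 and slides 5, 6 and 9 only non-mated ones, so slide and cycle type cannot be told apart there. Slide 1 held conception replicates 1 and 2 and non-mated replicate 1. Its median day 6 difference was -1.65 for the lower and 0.30 for the higher genes. The day 6 arrays entered the choice of genes through the estimate of spread, the filter on dim probes and the choice of probe. All 15 lower and all 15 higher genes passed the filter, with the same probe, when the day 6 arrays were left out of both steps. At day 2 without the weak array, 7 of the 15 lower and 11 of the 15 higher genes kept their side.

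FSTL3 differed by -0.61 at day 2 and -1.43 at day 6, PNMT by 0.08 and -2.77, SFRP5 by 0.08 and -1.31, and NOG by -0.31 and -1.15, where the day 2 values leave out the weak array. GPX3 differed by 0.36 and 0.03, and GADD45A by 0.11 and 0.67. The test of whether the day 4 difference departs from that of another day called 0 features for day 2 (146 below an unadjusted p of 0.05, and 374 when the weak arrays were left out) and 0 for day 6 (416 and 337), by limma. In cycles without mating 13 of the 15 lower genes had lower levels at day 6 than at day 2 without the weak arrays. The median of the 15 was -0.18, against 0.01 over all features, of which 51.5% rose, and 0 of the 15 passed the test. In conception cycles the median of the 15 was -1.85. RIPOR2 passed the filter on dim probes only through the conception day 2 arrays, the high end of that fall.

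**Figure D5:**
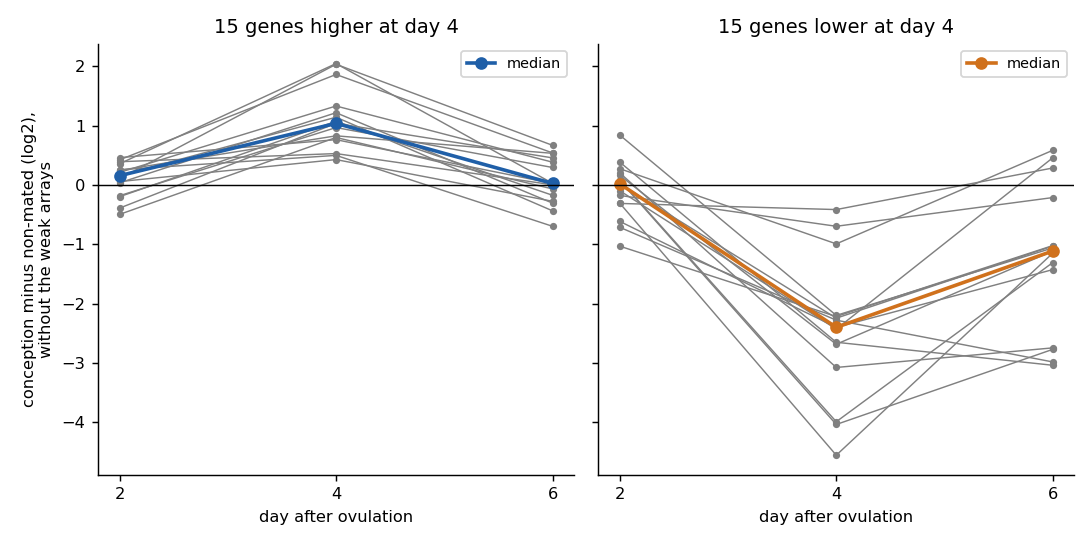
Log2 difference between conception and non-mated endometrium without the weak arrays at days 2, 4 and 6 after ovulation for the 15 genes higher (left) and the 15 lower (right) with the smallest p at day 4; grey lines are genes and the thick line is their median. The genes were chosen at day 4, so its peak is a description; the lower genes have a median of 0.02 at day 2 and of -1.11 at day 6.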

How the data were processed

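The deposited scanner files hold 1 intensity per spot after background correction. Per the file headers this was done in Agilent Feature Extraction 9.5.3.1, while the submitters' processing notes name 10.7.3.1. Per the file headers the probe positions are on rheMac2. Control spots and flagged outliers were dropped, spots of a probe averaged, and log2 of the processed signal minus the array's 75th percentile taken. The authors also deposited a log2 value table, whose baseline is not given in the sources used here; it served as an alternative only. A probe was kept if any of the 6 groups had 3 or more of its 4 arrays well above background, which held for 12780 of 20217. The probe with the highest mean stood for a gene, and probes without a symbol stood alone, which gave 12194 features, 7951 with a symbol. Symbols were found for 12347 probes, from the names in the files and through a table of RefSeq genes.

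Means of 6 groups over 24 arrays were fitted with limma 3.58.1 in R 4.3.3 (18 residual degrees of freedom, 15 without the 3 weak arrays, of which 1 lies at day 2), two-sided, with Benjamini-Hochberg adjustment at 0.05. The steps were tested on simulated data. Files were read with pandas 2.3.3 and numpy 2.4.6 in Python 3.11.15, and plots drawn with matplotlib 3.10.9. A bound on a fold sets the dimmer group, per array, to the higher of its own signal and the lowest signal well above background, and is given only where no array of the brighter group is at its floor.

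Named genes are the 15 smallest p in each direction, the 10 smallest without the weak arrays, up to 5 of each of 48 gene lists by p, and PAEP, LIF, SPP1, PGR, ESR1, HOXA10, IGFBP1, PIWIL4, TMEM61 and HRH1, of which the text takes a part chosen with their values known. Of the 15 lower genes 1 is not reported here by name. The comparison, genes and lists were chosen with earlier results of these data known. The common floor, the alternatives of the fit without weak arrays and the day 6 against day 2 values in non-mated cycles were added after seeing the data. Other alternatives were background correction, scaling, filters, slide, scan day and replicate blocks, array weights and leaving out each array. Same-numbered arrays correlated in their deviations from group means at -0.00, 0.01, -0.21 and 0.46, and differently numbered ones at -0.38 to 0.24. Weak replicates 1 and 2 held many floor values, so these correlations cannot decide whether the numbers pair the arrays. The main fit did not pair them.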

Additional observations from a re-analysis of the deposited data

Results flagged for a closer look

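Of 168 pairs of a gene and a day 4 group, 8 held an array far from the other 3 of its group, a gap that chance gives in about 1 in 20 groups. Chance alone would thus give about 8.4 such pairs, so the count is no more than that. In conception cycles TESC lay at -0.037 on replicate 4, against 0.99 to 1.12 on the others. PSAT1 lay at -1.47 on the same replicate, against -3.34 to -3.03. LAMB1, a laminin chain gene of the basement membrane, lay at 3.68 there, against 3.18 to 3.24. Conception replicate 4 was the only conception day 4 array scanned over a single range. Whether the scan range bears on these values was not tested.

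SLC28A2 lay at -2.55 on conception replicate 3, against -1.08 to -0.90 on the others. CTSD lay at 2.15 on conception replicate 1, against 1.50 to 1.55.

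In non-mated cycles BMP2, a growth factor gene of decidualization, lay at -2.43 on weak replicate 1, against -1.73 to -1.61. JCHAIN, an immunoglobulin joining chain gene, lay at -3.68 there, which is the floor of that array, against -1.91 to -1.68. The keratin gene KRT7 lay at -3.80 on strong replicate 3, against -2.05 to -1.73. For these 3 genes the value of replicate 2 is its floor of -1.73, so the gap was measured against an array that could show nothing lower.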

How the results depend on the processing

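Of 84 genes under up to 23 alternatives each, 79 did not reverse direction in any that gave a value. Of the 84, 29 were chosen for their small p on this contrast, so a reversal was less likely for them. AHSP, ODF1 and TAGLN were not among the 84, and the differences of AHSP and ODF1 changed sign without the weak arrays. A difference of 0 has no direction and counted as not reversed. With the common floor this held for HRH1, MCF2, TMEM61, RIPOR2, LIFR, KRT7, MRC1, CD8A, AOAH and MARCHF5. DES was 0.043 without the weak arrays, ABCA3 0.49 after quantile normalization and 0.057 after centring, BMP2 0.015 and JCHAIN 0.16 after quantile normalization, and LIF from -0.23 (without conception replicate 2) to 1.58 with 1 array left out. The count of features that passed was 0 under every alternative except leaving out 1 array, where it ranged from 0 to 1 with all arrays and from 0 to 1 without the weak ones. The second 1 came without non-mated replicate 4, for the unnamed probe A_01_P007457, at 5.89 on non-mated replicate 3 and -2.66 on replicate 4 (adjusted p = 8.95e-10), with replicate 3 alone assumed to vary like the other groups.

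The count at an unadjusted p under 0.05 was 743, 428 with the 8 day 4 arrays alone and 441 with normexp correction, and ranged from 311 to 1698 with 1 array left out. Without the weak arrays the day 4 minus day 2 count went from 146 to 374. With array weights the count was 1046 and the smallest adjusted p 0.0585. With the replicate block 0 features passed, 765 fell below an unadjusted p of 0.05, and 484 did when the weak arrays were left out.

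The cause of these shifts was not tested. With 2 strong non-mated arrays, on different slides from all conception arrays, slide and cycle type cannot be told apart without the weak ones. A low level on non-mated replicates 1 and 2 cannot be read below -3.68 and -1.73.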

Other observations

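Some gene groups outside the comparison's main lists also lay to one side. Metallothioneins, which bind zinc and copper, were higher for 6 of 7 in both fits, with medians of 0.58 and 0.46, the second of which was -0.029 without conception replicate 2. MT2A lay at 2.24, 3.76, 0.55 and 0.12 in conception cycles and at 0.86, -1.73, 1.02 and -0.78 in non-mated cycles, with the high values on conception replicates 1 and 2 of scan day 2. The mean difference of the list was 1.64 on scan day 2 and -0.34 on scan day 1. Of 14 prostaglandin genes 11 were lower and the median was -0.80, while 9 were lower without the weak arrays and the median was -0.13, which was 0.21 without non-mated replicate 4. PTGES, which makes prostaglandin E2, lay at -0.12, -0.39, -3.83 and -2.84 against -0.44, 0.96, 0.39 and -0.62, and its groups overlapped.

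Matrix genes differed by less. Of 20 collagen and laminin genes 14 were higher, and their median was 0.24. COL4A1, a basement membrane collagen, lay at 1.94, 1.86, 2.43 and 1.47 against 0.68, 0.51, 1.21 and 1.29, without overlap, and its difference of 1.00 ± 0.46 was 0.67 ± 0.47 without the weak arrays. LAMB1 did not overlap either, but its groups lay only 0.006 apart, with a difference of 0.56 ± 0.32. The integrin subunit gene ITGAV, part of a receptor for osteopontin, lay at -1.36 to -1.05 against -2.39 to -1.69, with a difference of 0.72 ± 0.32 and of 0.60 ± 0.27 without the weak arrays.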
